A study of Homo sapiens with 12 samples.

Results

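In all, 7 genes of the metallothionein cluster on human chromosome 16 were followed, MT1E, MT1F, MT1G, MT1H, MT1M, MT1X and MT2A. They were taken by gene symbol, after the Ensembl identifiers of the deposited count files had been matched to symbols, and make up 7 of 57773 genes in the files. Of the 7, 6 passed the filter on low counts, and MT1H did not. The study used HuH-7, an established human hepatoma cell line, in 2 stable lines that each carried a V5-tagged form of HuR, the RNA-binding protein encoded by ELAVL1. The mutant line carried HuR K120/182R, in which a pair of lysines is replaced by arginine so that these residues cannot carry SUMO, a small ubiquitin-like protein, and the WT line overexpressed wild-type HuR. Total RNA was sequenced from V5 immunoprecipitates (RNA immunoprecipitation, RIP) and from the input of the same line, with 3 libraries in each of 4 groups: mutant RIP, WT RIP, mutant input and WT input. The file headers name DMSO, a common vehicle, for the libraries, while the labels name no treatment. No mock precipitate was used here, so an enrichment is a level relative to input and includes any RNA held without HuR. Nothing in the labels tells whether the 3 replicates of a group were cultured separately. The tests therefore see only how these libraries vary, which could be technical variation, and each line may be a single derivation.

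Metallothioneins are small cysteine-rich proteins that bind zinc, copper and cadmium and buffer free zinc in the cell. Their genes are switched on by the zinc-sensing transcription factor MTF1, which binds metal response elements in their promoters, and also by glucocorticoids and oxidant stress. In liver they are abundant and inducible, and several isoforms are often silenced in hepatocellular carcinoma. HuR is known for binding U-rich and AU-rich stretches, mostly in 3′ untranslated regions (UTRs) and introns.

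The longest run of T in each 3′ UTR is shown with up to 8 bases before and after it, because U-rich stretches are the kind of sequence HuR is known to bind. The sequences are from the canonical transcripts of the annotation on the hg19 assembly, written 5′ to 3′ as DNA, with the run in capitals.
MT1E: aacctggaTTTTTTTaaaaatac
MT1F: aacctggaTTTTTTTTTTataccacc
MT1G: tacattccTTTTTTTctgtgaaa
MT1H: atccaggaTTTTTTTTTTctacaact
MT1M: aacctggaTTTTTTTTcaatacga
MT1X: aacctggaTTTTTTTTTTTTTTTTTTTTgt
MT2A: aacctggaTTTTTTatgtacaa
The run was 20 bases long in MT1X, 10 in MT1F and MT1H, 8 in MT1M, 7 in MT1E and MT1G and 6 in MT2A. In MT1E, MT1F, MT1M, MT1X and MT2A the 8 bases before the run are the same. These UTRs are short, 139 to 291 bases, against a median of 1238 bases over 13813 coding genes tested. Among 1683 coding genes with a UTR of 100 to 300 bases, the median longest run was 4 bases. Of these, 16.9% had a run of 6 or more, which all 7 metallothionein genes have. Over all 13813 coding genes the median was 6 bases and 62.9% had such a run. The 7 are related genes, not independent cases. The pentamer ATTTA, the core of AU-rich elements, was in none of the 7 UTRs, while 26.7% of the short UTRs held it.

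Metal response elements were looked for in the 250 bases before the gene start, since the members moved together between the lines, as described below. The RefSeq promoter table (GRCh38.p14, a newer assembly than that of the count files) held 3 of the 7 genes. The core was searched as TGCACNC and TGCGCNC on both strands, and matches are in capitals.
MT2A, plus strand, chr16:56608334-56608583: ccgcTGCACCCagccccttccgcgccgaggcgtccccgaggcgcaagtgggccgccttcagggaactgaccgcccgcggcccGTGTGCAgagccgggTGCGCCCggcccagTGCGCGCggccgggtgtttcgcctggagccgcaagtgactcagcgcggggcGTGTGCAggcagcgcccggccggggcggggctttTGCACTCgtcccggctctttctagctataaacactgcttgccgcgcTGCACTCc
MT1X, plus strand, chr16:56682220-56682469: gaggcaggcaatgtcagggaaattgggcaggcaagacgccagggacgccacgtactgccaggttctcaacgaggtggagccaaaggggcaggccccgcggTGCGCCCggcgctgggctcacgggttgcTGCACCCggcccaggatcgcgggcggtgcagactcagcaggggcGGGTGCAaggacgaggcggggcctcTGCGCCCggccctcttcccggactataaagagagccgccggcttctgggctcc
MT1H, plus strand, chr16:56669564-56669813: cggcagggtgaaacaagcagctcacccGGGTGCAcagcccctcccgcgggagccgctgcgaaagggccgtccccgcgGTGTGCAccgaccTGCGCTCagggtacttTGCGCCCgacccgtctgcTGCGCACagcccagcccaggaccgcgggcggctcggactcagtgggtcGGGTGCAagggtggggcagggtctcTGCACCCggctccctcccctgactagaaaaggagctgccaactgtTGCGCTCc
MT2A had 7 matches, MT1X 4 and MT1H 8, none overlapping another in the same sequence. At least 1 match was found before 24.8% of 35116 gene starts, at least 4 before 0.208% and at least 6 before 0.0342%. A TATAAA box started at -30 in MT1X and at -29 in MT2A. MT1H, with the most matches of the 3, was the member with almost no reads. Among these 3 genes the levels were not in the order of the matches, and a link between them was not tested.

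The libraries held 31774994 to 73149117 counts. In the normalization (TMM, the trimmed mean of M values) the scaling factors were 1.32 to 1.78 in precipitates and 0.526 to 0.909 in inputs. The first principal component (80.4% of the variance) separated precipitates from inputs and the second (10.6%) separated the mutant from the WT line. Levels are given below as CPM (counts scaled to a fixed total) on TMM-scaled library sizes, and as CPM per kb of canonical transcript where genes are compared with each other. Low counts were mostly even numbers (68.1% to 78.6% of counts from 1 to 19), so a low count may stand for fewer fragments than its value. Summed CPM of 8 hepatocyte-lineage markers was 3580 to 4050 in mutant RIP and 5780 to 6060 in WT RIP, and 8630 to 9800 in mutant input and 11000 to 13100 in WT input. Most of this sum was AFP, the fetal serum protein of hepatoma cells, and 2 of the 8 markers were lower in mutant input by the test. Immune markers summed to 8.81 to 11.5 CPM in mutant RIP and 7.57 to 8.57 in WT RIP, and to 12.5 to 13.8 in mutant input and 8.04 to 10.6 in WT input. PTPRC was at 0 counts in mutant RIP. Endothelial markers summed to at most 0.127 CPM in any library, with CDH5 at 0 in mutant libraries and KDR at 0 in WT libraries. Fibroblast markers summed to 0.588 to 1.03 CPM in mutant RIP, 0.678 to 0.786 in WT RIP, 1.0 to 1.46 in mutant input and 1.61 to 2.36 in WT input, with COL1A1 at 0 in WT RIP and mutant input. The part of these marker differences in the results below was not tested. ELAVL1 itself, whose counts include any transgene transcript that matches it, had a log2 fold change of -0.27 ± 0.12 in mutant over WT input (SE, adjusted p = 0.14).

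Metallothionein mRNA was lower in the mutant line than in the WT line, in the inputs and again in the precipitates. In the inputs 4 of the 6 members tested fell, MT1F, MT1M, MT1E and MT2A, where 10% of all 22984 genes tested were called lower. In the precipitates 5 of the 6 fell, the same 4 and MT1X, where 9.76% of all genes were called lower. The 3 mutant libraries lay wholly below the 3 WT libraries for 6 of the 6 members in both comparisons, against 18.1% of all genes in the inputs and 17.5% in the precipitates. The median log2 fold change of the 6 members was -1.38 in inputs and -1.23 in precipitates, beside 0.00 and 0.01 over all genes. Calls are edgeR quasi-likelihood F-tests with a Benjamini-Hochberg adjusted p under 0.05 over all genes. In bulk RNA, fewer cells making a transcript and less transcript per cell cannot be told apart.

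**Figure D1:**
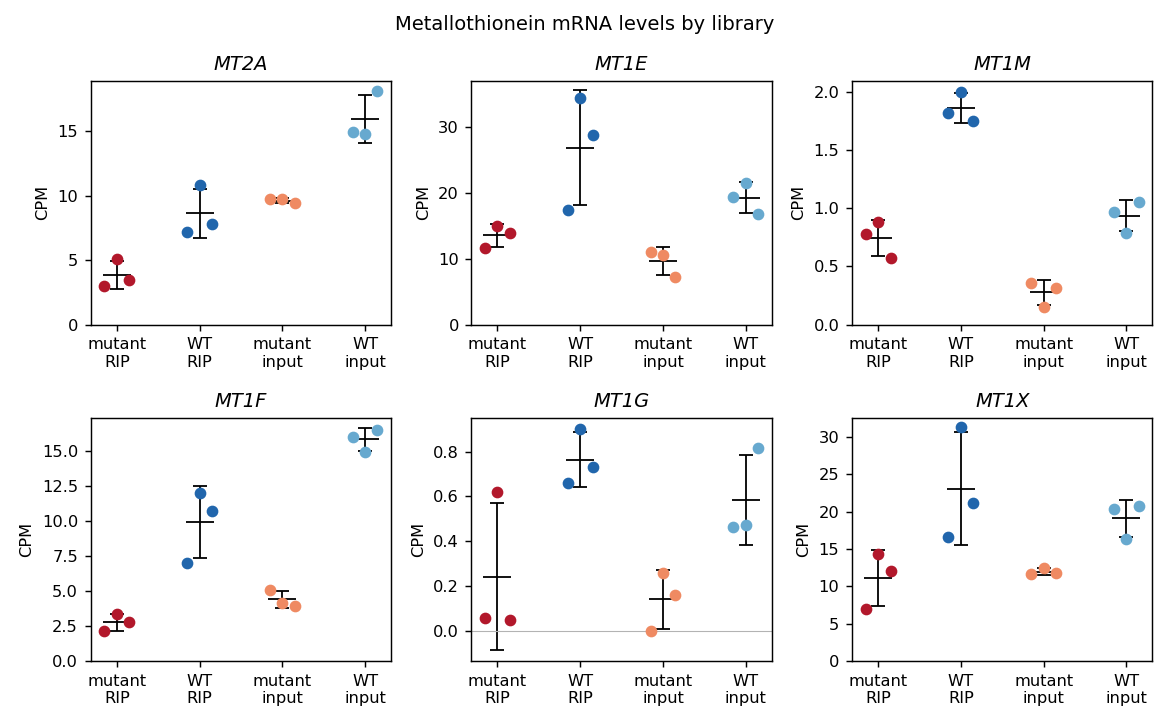
Level of each of the 6 tested metallothionein genes (CPM, linear axis per gene) in the 3 libraries of mutant RIP, WT RIP, mutant input and WT input; points are libraries, and the bar and whiskers are the mean and SD. In every panel the mutant points lie below the WT points of the same kind of library, and MT2A and MT1F are lower in RIP than in input while MT1M is higher.

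MT2A, the single MT2 isoform and usually the most widely expressed of the family, had 9.72, 9.7 and 9.41 CPM in mutant input, against 14.9, 14.8 and 18.1 CPM in WT input. In the precipitates it had 3.01, 5.09 and 3.44 CPM in mutant RIP, against 7.21, 10.8 and 7.83 CPM in WT RIP. Each mutant library was under each WT library of its kind, and the mutant inputs were nearly equal to one another. The log2 fold change was -0.73 ± 0.17 in inputs (SE, adjusted p = 0.00456, edgeR) and -1.16 ± 0.18 in precipitates (adjusted p = 5.55e-05).

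MT1E, a metal-inducible MT1 isoform, had 11.1, 10.6 and 7.19 CPM in mutant input, against 19.4, 21.5 and 16.8 CPM in WT input. In mutant RIP it had 11.7, 15 and 13.9 CPM, against 17.4, 34.4 and 28.8 CPM in WT RIP. The groups did not overlap, although WT RIP replicate 1 stood closer to the mutant precipitates than to the other WT ones. MT1E was lower by the same amount in both kinds of library, with a log2 fold change of -1.0 ± 0.21 in inputs (adjusted p = 0.00362, edgeR) and -1.0 ± 0.21 in precipitates (adjusted p = 0.0026).

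MT1X, another inducible MT1 isoform and the one with the longest T run shown above, had 11.6, 12.5 and 11.8 CPM in mutant input, against 20.3, 16.3 and 20.7 CPM in WT input. Its precipitates held 6.97, 14.3 and 12.1 CPM in mutant RIP, against 16.6, 31.3 and 21.2 CPM in WT RIP. The libraries of the lines did not overlap in either kind of library, and the spread was wider in the precipitates. The log2 fold change was -0.67 ± 0.25 in inputs (adjusted p = 0.0862, edgeR), which missed the threshold, and -1.06 ± 0.25 in precipitates (adjusted p = 0.0095). The precipitate call was lost when only mutant RIP and WT RIP entered the fit (adjusted p = 0.0752). MT1X shares 321 of its exon bases (18.6%) with the noncoding gene ENSG00000259827 on the same strand, so its counts are uncertain. That gene had a log2 fold change of -1.09 ± 0.34 in precipitates (adjusted p = 0.0513) and -0.41 ± 0.35 in inputs (adjusted p = 0.476). None of the other members shared exon bases with another gene.

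MT1F, an MT1 isoform, differed most between the lines among the members called. Its inputs held 5.1, 4.16 and 3.96 CPM in mutant input, against 16.0, 14.9 and 16.5 CPM in WT input. The precipitates held 2.17, 3.36 and 2.82 CPM in mutant RIP, against 7.03, 12 and 10.7 CPM in WT RIP. The highest mutant library was well under the lowest WT library in both kinds. MT1F had a log2 fold change of -1.85 ± 0.19 in inputs (adjusted p = 2.49e-07, edgeR) and -1.84 ± 0.19 in precipitates (adjusted p = 2.14e-07), a level in mutant input of 0.278 times that in WT input.

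MT1M, an isoform known to be silenced by promoter methylation in many hepatocellular carcinomas, was expressed at a low level. It had 0.358, 0.156 and 0.317 CPM in mutant input, which were 6 to 12 counts, against 0.972, 0.786 and 1.05 CPM in WT input. In mutant RIP it had 0.776, 0.881 and 0.574 CPM, against 1.82, 2.0 and 1.75 CPM in WT RIP. No mutant library reached a WT library of its kind. The log2 fold change was -1.77 ± 0.35 in inputs (adjusted p = 0.00101, edgeR) and -1.31 ± 0.28 in precipitates (adjusted p = 0.00181).

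MT1G, likewise often silenced in liver cancer, had 0, 10 and 6 counts in mutant input, against 22, 18 and 38 counts in WT input. In mutant RIP it had 4, 38 and 2 counts, against 40, 64 and 52 counts in WT RIP. The groups did not overlap, but mutant RIP replicate 2 nearly reached the lowest WT precipitate. Neither comparison passed the threshold, with a log2 fold change of -2.01 ± 0.83 in inputs (adjusted p = 0.109, edgeR) and -1.62 ± 0.70 in precipitates (adjusted p = 0.122). MT1G was called lower under 5 of 9 other settings in inputs and 4 of 9 in precipitates, so its call depends on the setting. Without mutant RIP replicate 2 the value in precipitates was -3.81 (adjusted p = 0.00083), and that in inputs stayed at -2.01 but was called (adjusted p = 0.0187). MT1H had 0, 1 and 0 counts in mutant RIP, 0, 1 and 0 in WT RIP, 0, 0 and 3 in mutant input and 1, 3 and 1 in WT input. At this depth no difference in MT1H was detectable.

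**Figure D2:**
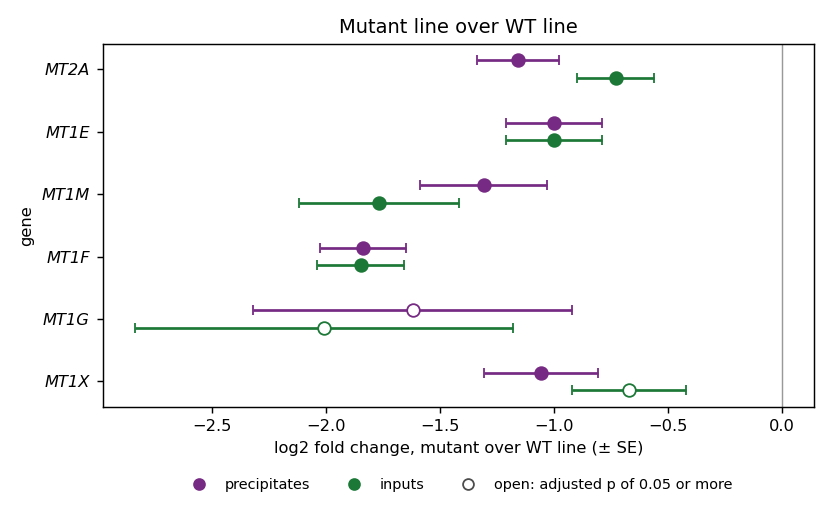
Log2 fold change of the mutant over the WT line for each of the 6 tested genes, in precipitates (purple) and inputs (green); whiskers are the SE and open points have an adjusted p of 0.05 or more. All points are below 0, from -0.67 for MT1X to -2.01 for MT1G, both in inputs.

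Between V5-HuR precipitates and inputs, MT1M was higher in RIP, MT1F and MT2A were lower, and MT1E, MT1G and MT1X did not pass the test, in the mutant and in the WT line. In the mutant line 1 of the 6 members was called higher in RIP and 2 lower, where 29.0% of all genes tested were called higher and 28.0% lower. In the WT line the counts were again 1 higher and 2 lower, where 25.6% of all genes were called higher and 25.4% lower, so the number of members called was near the share of all genes.

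MT1M had a log2 fold change, RIP over input, of 1.44 ± 0.35 in the mutant line (SE, adjusted p = 0.00109, edgeR) and 0.98 ± 0.28 in the WT line (adjusted p = 0.00524). MT2A was at -1.32 ± 0.18 in the mutant line (adjusted p = 8.36e-07) and -0.89 ± 0.17 in the WT line (adjusted p = 0.000117). MT1F was at -0.66 ± 0.19 in the mutant line (adjusted p = 0.00498) and -0.67 ± 0.17 in the WT line (adjusted p = 0.0023). For these 3 genes the precipitates did not overlap the inputs in either line. Over all genes the precipitates lay wholly above the inputs for 32.9% in the mutant line and 30.4% in the WT line, and wholly below for 30.3% in the mutant line and 28.8% in the WT line. Removing each library's trend with transcript GC content ended the call of MT1F in the mutant line (-0.25, adjusted p = 0.226). It left MT2A called but nearer 0, at -0.69 in the mutant line (adjusted p = 0.000337) and -0.40 in the WT line (adjusted p = 0.0198). Removing the trend with transcript length ended the call of MT1M in the WT line (0.62, adjusted p = 0.0754).

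MT1E had a log2 fold change of 0.49 ± 0.21 in the mutant line (adjusted p = 0.0584, edgeR) and 0.49 ± 0.20 in the WT line (adjusted p = 0.0575). Its precipitates lay wholly above the inputs in the mutant line and overlapped them in the WT line. It passed the threshold under 10 of 11 other settings in each line, so it stood at the border of the test, and with the GC trend removed it was at 0.93 in the mutant line (adjusted p = 0.0057) and 0.79 in the WT line (adjusted p = 0.0124). MT1X was at -0.11 ± 0.25 in the mutant line (adjusted p = 0.734) and 0.27 ± 0.25 in the WT line (adjusted p = 0.386). MT1G was at 0.77 ± 0.87 in the mutant line (adjusted p = 0.476) and 0.38 ± 0.67 in the WT line (adjusted p = 0.659). Without mutant RIP replicate 2 the value of MT1G in the mutant line was -1.42.

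**Figure D3:**
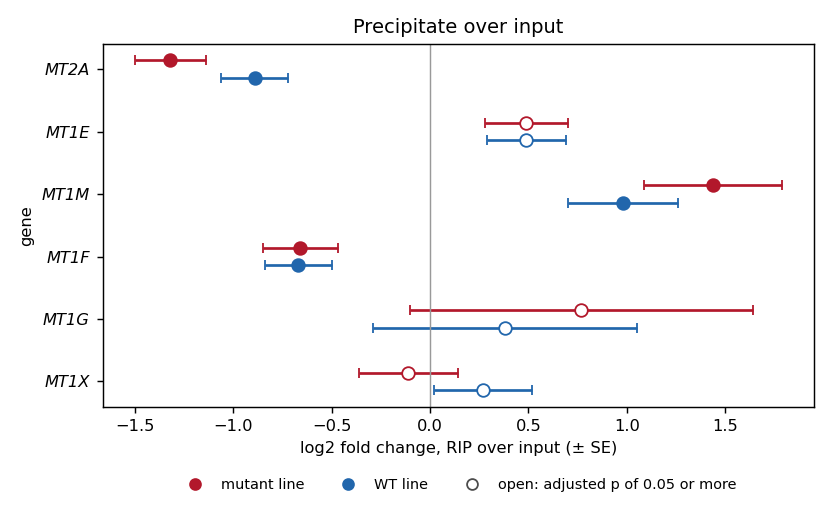
Log2 fold change of RIP over input for each of the 6 tested genes in the mutant (red) and WT (blue) line; whiskers are the SE and open points have an adjusted p of 0.05 or more. MT2A and MT1F lie below 0 and MT1M above 0 in both lines, from -1.32 for MT2A to 1.44 for MT1M in the mutant line.

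These directions depend on how RIP and input libraries are put on a common scale. With total counts in place of TMM, the median of all genes moved to 1.38 in the mutant and 1.12 in the WT line. On that scale MT1F was at 0.63 in the mutant line and 0.36 in the WT line, and MT2A at -0.03 in the mutant line and 0.15 in the WT line, all under the median of all genes, while MT1M was above it at 2.73 in the mutant line and 2.02 in the WT line. A ratio of 2 members within a library does not depend on scale. Counts of MT1E per count of MT2A were 3.88, 2.94 and 4.03 in mutant RIP and 1.14, 1.09 and 0.764 in mutant input, and 2.42, 3.19 and 3.68 in WT RIP and 1.3, 1.46 and 0.928 in WT input. Every precipitate was above every input. Counts of MT1M per count of MT1F were 0.357, 0.262 and 0.203 in mutant RIP and 0.0702, 0.0375 and 0.08 in mutant input, and 0.259, 0.167 and 0.163 in WT RIP and 0.0607, 0.0528 and 0.0636 in WT input. Here too no precipitate reached down to an input. Counts of MT1X per count of MT1E were 0.597, 0.954 and 0.871 in mutant RIP and 1.05, 1.18 and 1.65 in mutant input, and 0.954, 0.908 and 0.736 in WT RIP and 1.05, 0.76 and 1.23 in WT input. This ratio separated precipitates from inputs in the mutant line and overlapped in the WT line. The 3 ratios were chosen after the values had been seen, and no test was made of them.

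**Figure D4:**
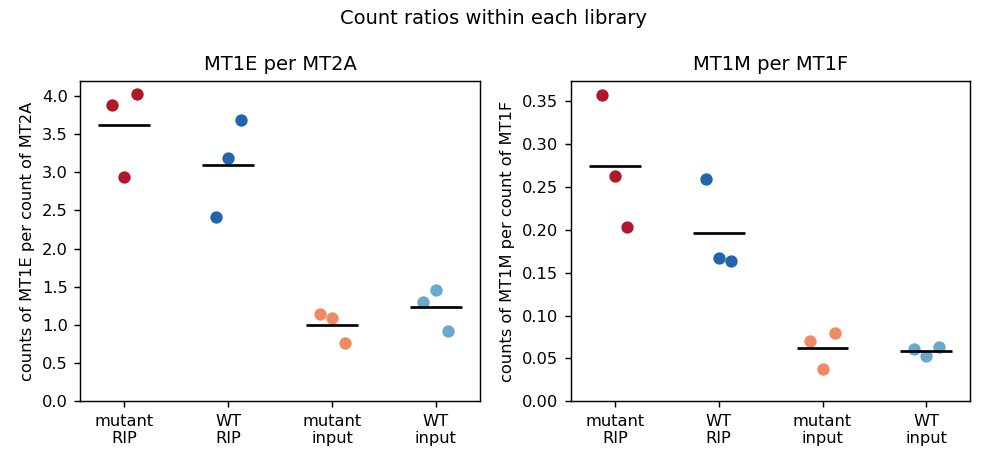
Counts of MT1E per count of MT2A (left) and of MT1M per count of MT1F (right) within each library of mutant RIP, WT RIP, mutant input and WT input; points are libraries and lines are means. In both panels the 6 RIP points lie above the 6 input points, and the mutant and WT points overlap within RIP and within input.

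The calls of enrichment were not in the order of the T run lengths among the 6 members, and a link between them was not tested. MT1X, with a run of 20, was not called in either direction, MT1F with 10 was lower in RIP and MT1M with 8 was higher. MT1E and MT1G, each with 7, were not called, and MT2A with 6 was lower. Coding genes with a UTR of 100 to 300 bases had a median log2 fold change, RIP over input, of -0.23 in the mutant line and -0.21 in the WT line, against -0.11 in the mutant line and -0.13 in the WT line for all coding genes with a UTR.

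No difference of enrichment between the lines was called for any of the 6 members by edgeR, and none had an unadjusted p under 0.05 (the lowest was 0.0938). DESeq2 called 0 of the 2 members to which it gave an adjusted p, MT1E and MT1X, and gave none to the other 4. Over all genes 0.0653% were called, 15 genes, all of them higher in the mutant line. MT2A had the lowest difference of log2 enrichments, mutant minus WT, at -0.43 ± 0.25 (adjusted p = 0.48). The difference was 0.46 ± 0.45 for MT1M (adjusted p = 0.723), -0.38 ± 0.35 for MT1X (adjusted p = 0.708) and 0.39 ± 1.09 for MT1G (adjusted p = 0.927). For MT1E it was 0.00 ± 0.29 (adjusted p = 0.999) and for MT1F 0.01 ± 0.27 (adjusted p = 0.997). The SEs, from 0.25 to 1.09, limit how small a difference of enrichments could be seen. A p above the threshold does not show that enrichment was equal. Each difference of enrichments is the line difference in precipitates minus that in inputs. The near-equal line differences of MT1E and MT1F therefore restate their values here and are no separate evidence. For MT2A the line difference was -1.16 in precipitates and -0.73 in inputs, and for MT1X -1.06 and -0.67. It was -1.31 in precipitates and -1.77 in inputs for MT1M, and -1.62 and -2.01 for MT1G.

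The summed level of the 7 genes was 24.7, 39.2 and 32.9 CPM in mutant RIP and 50.8, 91.4 and 71.0 CPM in WT RIP. In inputs it was 37.8, 37.4 and 33.0 CPM in mutant input and 72.1, 68.8 and 74.0 CPM in WT input. The mutant libraries were all below the WT libraries of the same kind, with a ratio of means of 0.454 in precipitates and 0.503 in inputs. Within a line the ratio of means, RIP over input, was 0.895 in the mutant and 0.992 in the WT line on the TMM scale. That ratio is set by the scaling: with total library size the sum was 45.2 CPM in mutant RIP and 20.7 in mutant input, and 112 in WT RIP and 55.7 in WT input. The makeup of the sum within a library does not depend on scale. The shares given here are of group mean CPM, in which the scaling weights the 3 libraries. In single libraries MT1E held 827 of 1747, 917 of 2403 and 605 of 1432 summed counts in mutant RIP. In mutant input it held 371 of 1269, 408 of 1437 and 272 of 1247. MT1E made up 41.9% of the sum in mutant RIP and 26.7% in mutant input, and 37.8% in WT RIP and 26.8% in WT input. MT2A made up 11.9% in mutant RIP and 26.7% in mutant input, and 12.1% in WT RIP and 22.2% in WT input. MT1F made up 12.2% of the sum in mutant input and 22.1% in WT input. The sum was not tested, since its genes were chosen with results known.

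Per kb of canonical transcript, MT1X had the highest mean level of the members in each of the 4 groups. This order depends on the length used. The canonical transcript of MT1E is 746 bases long, against 397 (MT1H) to 425 (MT1F) in the other members, which lowers MT1E on this scale. The annotated exons of MT1X cover 1727 bases, against 404 in its canonical transcript, and those of MT2A cover 914, against 401. In mean CPM without length, MT1E was above MT1X in mutant RIP (13.5 against 11.1), in WT RIP and narrowly in WT input (19.2 against 19.1). MT1X was above MT1E in mutant input. In mutant input MT1X had 29.6 ± 1.13 CPM per kb (SD, n = 3), MT2A 24.0 ± 0.428, MT1E 12.9 ± 2.84, MT1F 10.4 ± 1.42, MT1M 0.696 ± 0.268, MT1G 0.34 ± 0.32 and MT1H 0.0666 ± 0.115. In WT input MT1X had 47.3 ± 5.94 CPM per kb, MT2A 39.7 ± 4.67, MT1F 37.2 ± 2.0, MT1E 25.8 ± 3.16, MT1M 2.35 ± 0.342, MT1G 1.42 ± 0.488 and MT1H 0.102 ± 0.0833. On this scale MT1E and MT1F changed places between the lines, but their ranges overlapped in mutant input, as did those of MT1X and MT2A, and of MT2A and MT1F, in WT input. In mean CPM without length, MT1E was above MT1F in mutant input (9.62 against 4.41) and in WT input (19.2 against 15.8). In mutant RIP the means were 27.5 ± 9.28 CPM per kb for MT1X, 18.1 ± 2.25 for MT1E, 9.59 ± 2.74 for MT2A, 6.56 ± 1.4 for MT1F and 1.87 ± 0.393 for MT1M. In WT RIP they were 57.0 ± 18.5 CPM per kb for MT1X, 36.0 ± 11.6 for MT1E, 23.4 ± 6.08 for MT1F, 21.5 ± 4.78 for MT2A and 4.67 ± 0.322 for MT1M. In both kinds of precipitate the ranges of MT1X and MT1E overlapped, as did those of MT1F and MT2A. Across the 12 libraries the log2 levels of pairs of members had a Pearson correlation from 0.0448 (MT1M with MT2A) to 0.854 (MT1F with MT2A), a description in which all points share line and kind of library.

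Reads could be shared among the family, since the transcripts are alike. Of 75-base windows of the canonical transcripts, 0% in MT1F, MT1M and MT2A, 1.64% in MT1E, 8.18% in MT1X and 6.55% in MT1G also occur in another metallothionein gene. For MT1H the share was 10.8%. With 50-base windows the share was 6.12% in MT1F, 10.2% in MT2A, 10.3% in MT1E, 14.6% in MT1M, 18.0% in MT1X, 19.9% in MT1G and 20.4% in MT1H, and with 100-base windows it was 0% in all but MT1H (3.36%). Neither the read length nor the handling of reads with several places is given in the sources used here, so how far values of the 7 genes share reads is uncertain.

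The members lie within a short stretch of chromosome 16, with positions on hg19. MT2A is at chr16:56642496-56643409, MT1E at chr16:56659387-56661024, MT1M at chr16:56666571-56667893 and MT1F at chr16:56691643-56694610, all on the plus strand. MT1G is at chr16:56700642-56701977 on the minus strand, MT1H at chr16:56703726-56705041 and MT1X at chr16:56716382-56718108 on the plus strand. Of 9 other metallothionein genes and pseudogenes of the cluster in the files, 1 passed the filter, MT1A, which lies between MT1M and MT1F. MT1A had 0.565 ± 0.32 CPM in mutant input and 0.361 ± 0.131 in WT input (SD, n = 3), and 0.44 ± 0.19 in mutant RIP and 0.255 ± 0.0851 in WT RIP. Its log2 fold change was 0.63 ± 0.52 in inputs (adjusted p = 0.448, edgeR) and 0.76 ± 0.51 in precipitates (adjusted p = 0.321), above 0 in both, at 8 to 35 counts per library. DESeq2 did not call it in either comparison, and its unadjusted p was 0.234 in inputs and 0.144 in precipitates. MT4 was at 0 counts in all libraries and MT3 at 0 or 1.

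Of 8 genes tested within 250 kb of the cluster, 2 were lower in mutant input and none was called in precipitates. BBS2, a part of the BBSome of cilia, had a log2 fold change of -0.57 ± 0.14 in inputs (adjusted p = 0.00584, edgeR) and -0.07 ± 0.14 in precipitates (adjusted p = 0.793). NUDT21, a cleavage factor subunit of mRNA 3′ ends, was at -0.48 ± 0.12 in inputs (adjusted p = 0.00748), a call lost without WT input replicate 1 or mutant input replicate 2. In the annotation used here NUDT21 shares 45.9% of its exon bases with a gene on its strand that was not among the genes counted. In precipitates 4 of the 8 had an unadjusted p under 0.05, and DESeq2 called 1 of the 7 to which it gave an adjusted p. On the other side of the cluster NUP93, of the nuclear pore, was at -0.16 ± 0.13 in inputs (adjusted p = 0.432) and 0.14 ± 0.13 in precipitates (adjusted p = 0.491).

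**Figure D5:**
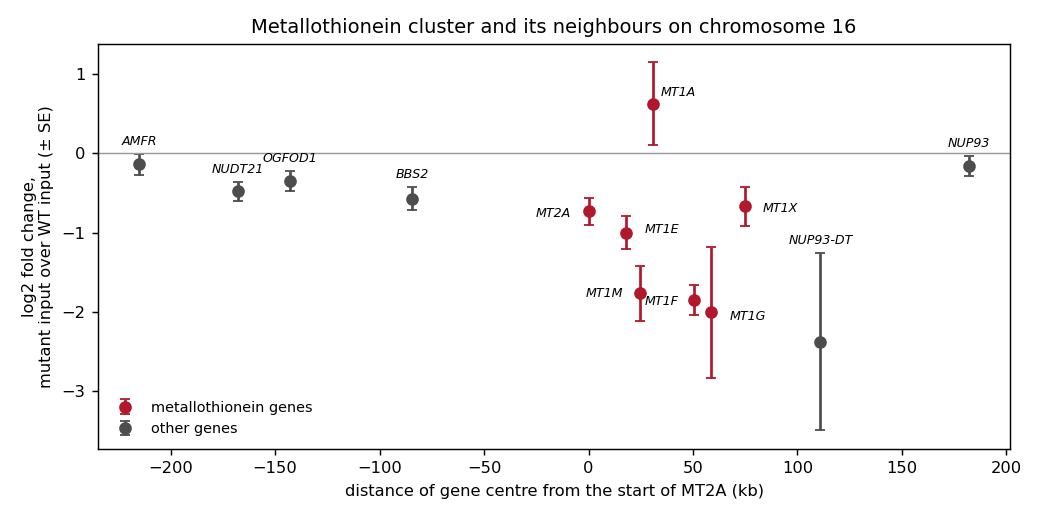
Log2 fold change of mutant over WT input (points, with SE) against the distance of each gene's centre from the start of MT2A in kb, for tested metallothionein genes (red) and named neighbours within 250 kb (grey). Metallothionein points lie between -0.67 and -2.01 except MT1A at 0.63, the neighbouring coding genes lie between -0.14 and -0.57, and the noncoding NUP93-DT is at -2.38 ± 1.12.

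Among zinc-handling genes the clearest difference was in SLC30A1, the plasma membrane zinc exporter, which like the metallothioneins is a known MTF1 target. It had 20.4, 20.0 and 21.1 CPM in mutant input, against 37.3, 35.6 and 29.1 CPM in WT input. In mutant RIP it had 17.6, 14.5 and 19.5 CPM, against 31.7, 23.1 and 32.3 CPM in WT RIP. Neither pair of groups overlapped, and the log2 fold change was -0.73 ± 0.14 in inputs (adjusted p = 0.000781, edgeR) and -0.76 ± 0.14 in precipitates (adjusted p = 0.000419). MTF1 itself had 7.11 ± 0.513 CPM in mutant input and 7.18 ± 0.433 in WT input (SD, n = 3), with a log2 fold change of -0.01 ± 0.15 (adjusted p = 0.965). In precipitates MTF1 was at -0.35 ± 0.14 (adjusted p = 0.0925). The promoter of SLC30A1 held 1 match to the metal response core and that of MTF1 held 0.

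Of the 8 zinc sensor and exporter genes tested, 4 were called lower in mutant input and none higher. Beside SLC30A1 these were SLC30A9 at -0.63 ± 0.12 (adjusted p = 0.000932), the Golgi zinc transporter SLC30A7 at -0.49 ± 0.14 (adjusted p = 0.0182) and the manganese exporter SLC30A10 at -0.34 ± 0.11 (adjusted p = 0.0399). The calls of SLC30A7 and SLC30A10 were lost without WT input replicate 1 or 2 or mutant input replicate 1 or 2, and that of SLC30A10 also without mutant input replicate 3 or mutant RIP replicate 2. In precipitates 2 of the 8 were lower, SLC30A1 and SLC30A9 (-0.35 ± 0.12, adjusted p = 0.0481), and none higher. Over all genes 9.76% were called lower and 9.87% higher in precipitates. The SLC30A9 call was lost without any 1 of mutant RIP replicates 1 to 3 or of WT RIP replicates 1 and 3. The median log2 fold change of these 8 genes was -0.35 in inputs (from -0.73 to 1.17) and -0.07 in precipitates (from -0.76 to 1.91). Both highest values were those of SLC30A4, which was not called, at 2 to 33 counts per library. Its mean was 0.171 CPM in mutant input and 0.0742 in WT input, and 0.352 in mutant RIP and 0.0906 in WT RIP. Of 12 zinc importers edgeR called none in inputs, where 1 had an unadjusted p under 0.05 and DESeq2 called 1, and their median was 0.04. In precipitates 1 importer was higher, SLC39A5 at 0.73 ± 0.15 (adjusted p = 0.000973), and 2 were lower, SLC39A7 of the endoplasmic reticulum at -0.47 ± 0.13 (adjusted p = 0.0118) and SLC39A11 at -0.42 ± 0.14 (adjusted p = 0.0314). Both lower calls were lost without WT RIP replicate 1 or mutant RIP replicate 3, and that of SLC39A11 also without mutant RIP replicates 1 or 2 or WT RIP replicate 3.

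Of the other lists, the copper-handling genes called were all higher in the mutant line, while the glucocorticoid and stress lists went both ways. Over all genes 7.47% were called higher in mutant input and 9.87% higher in mutant RIP. Of 11 copper-handling genes tested, 2 were higher in mutant input, the copper chaperone COX17 at 0.49 ± 0.14 (adjusted p = 0.0199) and SLC31A2 at 0.70 ± 0.24 (adjusted p = 0.0421), and none was lower. In precipitates 3 were higher, with CCS, the copper chaperone of superoxide dismutase, at 1.0 ± 0.13 (adjusted p = 9.41e-06), COMMD1 at 0.53 ± 0.16 (adjusted p = 0.0213) and COX17 at 0.45 ± 0.14 (adjusted p = 0.0257). The input calls of COX17 and SLC31A2 were lost without WT input replicate 1 or 2, that of SLC31A2 also without any mutant input replicate or mutant RIP replicate 2. The precipitate calls of COMMD1 and COX17 were lost without mutant RIP replicate 2 or WT RIP replicate 1, that of COX17 also without mutant RIP replicate 3 and that of COMMD1 also without WT RIP replicate 3.

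Of 12 glucocorticoid-responsive genes, 2 were higher and 3 lower in mutant input. DUSP1, a phosphatase of MAP kinases, was at 1.06 ± 0.16 (adjusted p = 3.79e-05), and the kinase SGK1 was at -0.89 ± 0.14 in inputs (adjusted p = 8.35e-05) and -0.53 ± 0.14 in precipitates (adjusted p = 0.00726). Of 14 genes of the metal and oxidant stress response, 4 were higher and 1 lower in mutant input. The lower one was GCLM, a subunit of the enzyme that makes the glutathione precursor, at -1.04 ± 0.13 (adjusted p = 5.82e-06). HSPA1A at 0.85 ± 0.14 (adjusted p = 0.000166) and HSPA1B at 0.87 ± 0.13 (adjusted p = 5.64e-05), near-identical heat shock genes whose reads cannot be split with certainty, were higher. In precipitates 1 of the 12 glucocorticoid-responsive genes was higher and 2 lower, and 4 of the 14 stress genes were higher and 1 lower. Over all genes 9.87% were called higher and 9.76% lower there.

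Outside the family, the coding genes whose log2 level across the 12 libraries was most like the log2 of the summed metallothionein level, among 9787 genes, were TRAPPC6A of a vesicle tethering complex (Pearson r = 0.957), NPC2, a lysosomal cholesterol carrier (0.957), PHLDB2 (0.953), the collagen COL12A1 (0.944) and ZSCAN30 (0.940). TRAPPC6A had a log2 fold change of -1.23 ± 0.17 in mutant over WT input and -1.38 ± 0.17 in precipitates, given as a description because it was chosen for this pattern. For COL12A1 the values were -1.09 ± 0.14 in inputs and -1.21 ± 0.13 in precipitates. SLC30A1 ranked 444 with r = 0.731 and MTF1 ranked 1798 with r = 0.460. Over the 6 inputs alone the most alike were SKAP2, TPGS2, ACAT2, ALDH7A1 and KIF5C, all with r of 0.997 or more. With 6 points that fall into 2 lines, many genes that differ between the lines reach such values. KIF5C, a kinesin heavy chain, was at -1.71 ± 0.14 in inputs, and ACAT2, an enzyme of acetyl-CoA metabolism, at -0.90 ± 0.12, on the log2 scale and likewise as a description.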

How the data were processed

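RNA-seq libraries of V5 precipitates and inputs were analysed from the count of reads per Ensembl gene that the authors deposited for every library, without normalization. Per the labels' protocols the libraries were stranded total RNA (16 to 77 ng of RNA for RIP and 250 ng for input). Per the submitters' processing notes bcl2fastq 2.20.0.422, cutadapt, STAR 2.4.0j and featureCounts 1.6.4 were used with hg19. The strand setting and annotation release are not given in the sources used here. Of 57773 identifiers, 55538 had an entry in GENCODE release 44 lifted to the same assembly. Identifiers without an entry held up to 21.0% of the counts of a library.

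The filter filterByExpr (at least 10 counts, total of at least 15) passed 22984 genes. One robust quasi-likelihood fit (edgeR 4.0.16, limma 3.58.1, R 4.3.3) took all 12 libraries and the 4 group means, leaving 8 residual degrees of freedom, with a common coefficient of biological variation of 0.157. P-values were Benjamini-Hochberg adjusted over all genes, called under 0.05. Standard errors were derived from the F statistic. Alternatives were DESeq2 1.42.0, other scalings and filters, only the groups compared, a replicate block, trends with transcript GC content and length (90.7% of tested genes had both), and leaving out each library. Replicates differed by more than sampling noise (chi-square divided by its degrees of freedom, 15 to 229). The fit was tested on simulated data. Sequences and figures used Python 3.11.15, Biopython 1.88, numpy 2.4.6, pandas 2.3.3 and matplotlib 3.10.9.

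The members, lists and tests were chosen with earlier results of these data known. Named beside the members were ELAVL1, MTF1, SLC30A1, at most 4 called genes per list and comparison (fewer are printed), and the 5 coding genes (mean log2 CPM of at least 2) most alike to the summed level over 12 libraries and over 6 inputs. NUP93, NUP93-DT, MT3, MT4, SLC30A4 and ENSG00000259827 were named after their values were seen.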

Additional observations from a re-analysis of the deposited data

Results flagged for a closer look

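Of the results reported for the members, none differed between the lines in RIP enrichment by the test. Among the list genes the copper chaperone gene CCS did: its log2 enrichment, RIP over input, was higher in the mutant than in the WT line by 1.0 ± 0.19 (SE, adjusted p = 0.0369, edgeR), with 2.59 ± 0.14 in the mutant line and 1.59 ± 0.14 in the WT line. The call was lost in 8 of 12 fits that left out 1 library, namely any mutant input, mutant RIP replicate 2 or 3, WT RIP replicate 1, or WT input replicate 1 or 2, where the value stayed between 0.86 and 1.08. SKAP2, named above for its likeness to the summed level over inputs, was also called for this difference (0.99 ± 0.19, adjusted p = 0.0369, edgeR). Mutant over WT, it was at -1.31 ± 0.14 in inputs and -0.32 ± 0.13 in precipitates. It was chosen by its input values, which enter this difference, so the value is a description. Groups of 3 libraries were not examined for outlying samples.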

How the results depend on the processing

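The lower levels of MT1E, MT1F, MT1M and MT2A in the mutant line were called in inputs and in precipitates under 10 of 10 other settings and in 12 of 12 fits that left out 1 library. MT1X was called in precipitates under 9 of 10 settings and in inputs under 6 of 10. With total library size the number of members called in mutant RIP over mutant input was 5, and values with another sign were 0.63 (mutant line) and 0.36 (WT line) for MT1F, 1.17 for MT1X in the mutant line and 0.15 for MT2A in the WT line. MT1X was also at 0.02 with TMM from protein-coding genes and 0.03 with the GC trend removed in the mutant line, and at -0.12 in the WT line with the length trend removed. With no filter the differences of enrichment of MT1E and MT1F were -0.00 and -0.00. MTF1 in inputs was at 0.02 with DESeq2 size factors and with DESeq2, 0.04 with coding-gene TMM, 0.01 with the stricter filter and with only the groups compared, and 0.06 with the length trend removed.

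Leaving out 1 library, the difference of enrichments ran from -0.23 to 0.22 for MT1E, from -0.19 to 0.17 for MT1F and from -1.80 to 1.11 for MT1G, RIP over input from -1.42 to 1.52 for MT1G and -0.34 to 0.14 for MT1X in the mutant line and -0.01 to 0.45 for MT1X in the WT line, and MTF1 in inputs from -0.07 to 0.04. Genes called over the whole table for the difference of enrichments were 15 as reported, 105 with total library size, 25 with coding-gene TMM, 434 with DESeq2, 185 with no filter, 1 with the stricter filter (50 counts in 3 libraries), 89 with the GC and 47 with the length trend removed, and 0 to 75 without 1 library. With total library size 7208 genes were called between inputs (386 higher, 6822 lower, median -0.43). Without 1 library, 2796 (without WT RIP replicate 1) to 5129 genes were called between precipitates, with 2953 without mutant RIP replicate 2, and 2195 (without WT input replicate 1) to 4160 between inputs. The summed level was 45.2 CPM in mutant RIP, 112 in WT RIP, 20.7 in mutant input and 55.7 in WT input with total library size, and 67.4 in WT input with coding-gene TMM.

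Replicate numbers showed no uniform pairing of the samples, but with 3 libraries per group these correlations cannot tell whether some were paired. In deviations from the group mean, same-numbered RIP and input libraries correlated at 0.29, -0.0358 and 0.42 in the mutant and 0.3, 0.135 and -0.166 in the WT line. Same-numbered mutant RIP and WT RIP libraries correlated at 0.357, 0.612 and 0.0441, where each mutant precipitate was most like the WT one of its number but WT RIP replicate 3 was not most like its own, and mutant input and WT input at -0.355, 0.163 and -0.521. With the replicate block MT1G was called in inputs (-2.26, adjusted p = 0.0304) and precipitates (-1.95, adjusted p = 0.0271) and MT1X in inputs (-0.70, adjusted p = 0.0148), and the difference of enrichments was called for 23 genes, and for 105 with the block within line, none a member. Depth limits MT1G and MT1H most.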
